A study of Mus musculus with 18 samples.

Results

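AP-1 and immediate early factors were followed as 10 genes, FOS, FOSB, FOSL1, FOSL2, JUN, JUNB, JUND, ATF3, EGR1 and IER3, which were taken by symbol from the 24360 rows of each deposited count table. All 10 had 1 row in both tables, and symbols are written in capitals as in those tables. RNA-seq had been run on cultured 168FARN and 67NR cells, mouse mammary tumour lines described by the study as non-metastatic. Each line had a WT group, a Kmt2c KO group and a Kmt2d KO group of 3 replicates each, giving 18 libraries. The 168FARN WT columns are named as carrying a control sgRNA and the 67NR WT columns as WT alone. The KO cells were not clones but sorted pools, edited by transient Cas9 and sgRNAs against exon 1 of Kmt2c or Kmt2d, which encode methyltransferases of histone H3 lysine 4 at enhancers. Cells of all groups grew in the same serum-containing medium and were detached with trypsin before lysis.

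The genes lie apart in the genome. In mm9, the build of the deposited counts, FOS occupies chromosome 12 from 86814840 to 86818223, FOSB chromosome 7 from 19888070 to 19895394, FOSL1 chromosome 19 from 5447703 to 5455945 and FOSL2 chromosome 5 from 32438845 to 32460204. JUN spans 94715725 to 94718913 on chromosome 4. JUNB spans 87500811 to 87502617 and JUND 73221638 to 73224515, both on chromosome 8. ATF3 is at 192994175 to 193007219 on chromosome 1, EGR1 at 35020861 to 35024638 on chromosome 18 and IER3 at 35958629 to 35959868 on chromosome 17. Exons of FOSL1 overlap those of CCDC85B on the opposite strand, and JUN, JUND and EGR1 overlap opposite-strand models that have no row of their own. How the counting treated strand is not given in the sources used here, so reads of such pairs could not be told apart.

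AP-1 is a pair of leucine zipper proteins, either a Fos protein with a Jun protein or a pair of Jun proteins, that binds a short palindromic DNA site at many enhancers. Its genes are classic immediate early genes: serum, growth factors, stress and cell detachment act through MAP kinases to raise their transcription within minutes, without new protein synthesis. FOS and FOSB carry strong activation domains and are usually transient. FOSL1 (Fra-1) and FOSL2 (Fra-2) are longer lived, and FOSL1 with JUN is known from mesenchymal and invasive carcinoma cells. EGR1 is a zinc finger factor induced by the same signals, and IER3 is a short-lived survival protein.

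RefSeq promoter sequences (build GRCm38.p6) matched 8 of the 10 genes, all but FOSL1 and EGR1. The 250 bases before the start are shown for FOS, the prototype of the group, and for JUN and JUND, whose levels moved in opposite directions in 67NR (below). Capitals mark exact matches to the motifs searched on both strands.
Fos, chr12:85473640-85473889, plus strand: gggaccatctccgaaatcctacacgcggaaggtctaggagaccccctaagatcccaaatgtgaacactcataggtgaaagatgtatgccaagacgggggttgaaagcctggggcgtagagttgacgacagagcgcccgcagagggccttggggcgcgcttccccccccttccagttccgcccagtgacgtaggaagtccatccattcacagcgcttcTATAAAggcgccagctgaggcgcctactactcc
Jun, chr4:95052223-95052472, minus strand: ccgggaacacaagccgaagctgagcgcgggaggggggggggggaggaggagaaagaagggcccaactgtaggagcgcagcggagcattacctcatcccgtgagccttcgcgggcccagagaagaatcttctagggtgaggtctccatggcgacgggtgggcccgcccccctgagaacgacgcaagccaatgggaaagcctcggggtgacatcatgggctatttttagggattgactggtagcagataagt
Jund, chr8:70697489-70697738, plus strand: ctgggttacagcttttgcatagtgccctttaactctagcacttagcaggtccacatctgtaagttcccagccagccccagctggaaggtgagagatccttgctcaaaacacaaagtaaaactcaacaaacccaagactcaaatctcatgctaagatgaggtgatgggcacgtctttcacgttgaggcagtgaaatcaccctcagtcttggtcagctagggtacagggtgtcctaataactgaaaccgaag
The motifs were the AP-1 site TGANTCA, the cAMP response element TGACGTCA, the CArG box bound by serum response factor, the EGR site GCGTGGGCG and the TATA box TATAAA. The match in Fos was a TATA box, 33 to 28 bases before the start. None of the 5 motifs matched exactly in the other 7 windows. Over all 32851 promoters of the same length, 6.75% held the AP-1 site, 1.55% the cAMP response element, 1.47% the CArG box, 0.536% the EGR site and 12.4% the TATA box.

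Counts per library ran from 14359760 to 43427382 in 168FARN and from 40951775 to 79251530 in 67NR. Levels are CPM, counts scaled to a common library size after TMM normalization over the 18 libraries, and values are listed for replicates 1, 2 and 3 in that order. Genes were called where the log2 fold change exceeded 0.6 in size and the Benjamini-Hochberg adjusted p of edgeR's quasi-likelihood test was below 0.1. SE is the standard error of a log2 fold change. KMT2C and KMT2D mRNA did not check the labels, since KO libraries overlapped WT or lay above it (in their own KO, KMT2C 48.0 to 98.5 CPM in 168FARN and 82.9 to 92.2 CPM in 67NR; KMT2D 138 to 299 and 91.0 to 141 CPM; in WT, KMT2C 45.5 to 117 and 55.7 to 64.7 CPM; KMT2D 106 to 165 and 84.7 to 114 CPM). The replicate 3 libraries stood apart from replicates 1 and 2 in both lines. Deviations from the group means correlated among replicates 3 and ran against those of replicates 1 and 2. Same-numbered samples were therefore treated as pairs in a second fit with the replicate number as a block, and its value is given wherever it changed a call.

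In 67NR, mRNA of FOSL1, JUN and EGR1 rose and that of JUND fell in both KOs, and that of FOS fell in Kmt2c KO cells. In Kmt2c KO against WT, 5 of the 10 genes were called higher (FOSB, FOSL1, JUN, EGR1 and IER3) and 2 lower (FOS and JUND), where 17.9% of the 13665 genes tested were called higher and 17.4% lower. In Kmt2d KO against WT, 3 were called higher (FOSL1, JUN and EGR1) and 1 lower (JUND), against 13.9% and 11.6% of all genes tested. The median log2 fold change over the 10 genes was 0.40 in the Kmt2c KO and 0.35 in Kmt2d KO cells, and over all genes tested it was -0.02 in both. Under the replicate block, 8 genes were called in the Kmt2c KO and 6 in Kmt2d KO cells, against 41.3% and 32.7% of all genes in either direction.

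**Figure D1:**
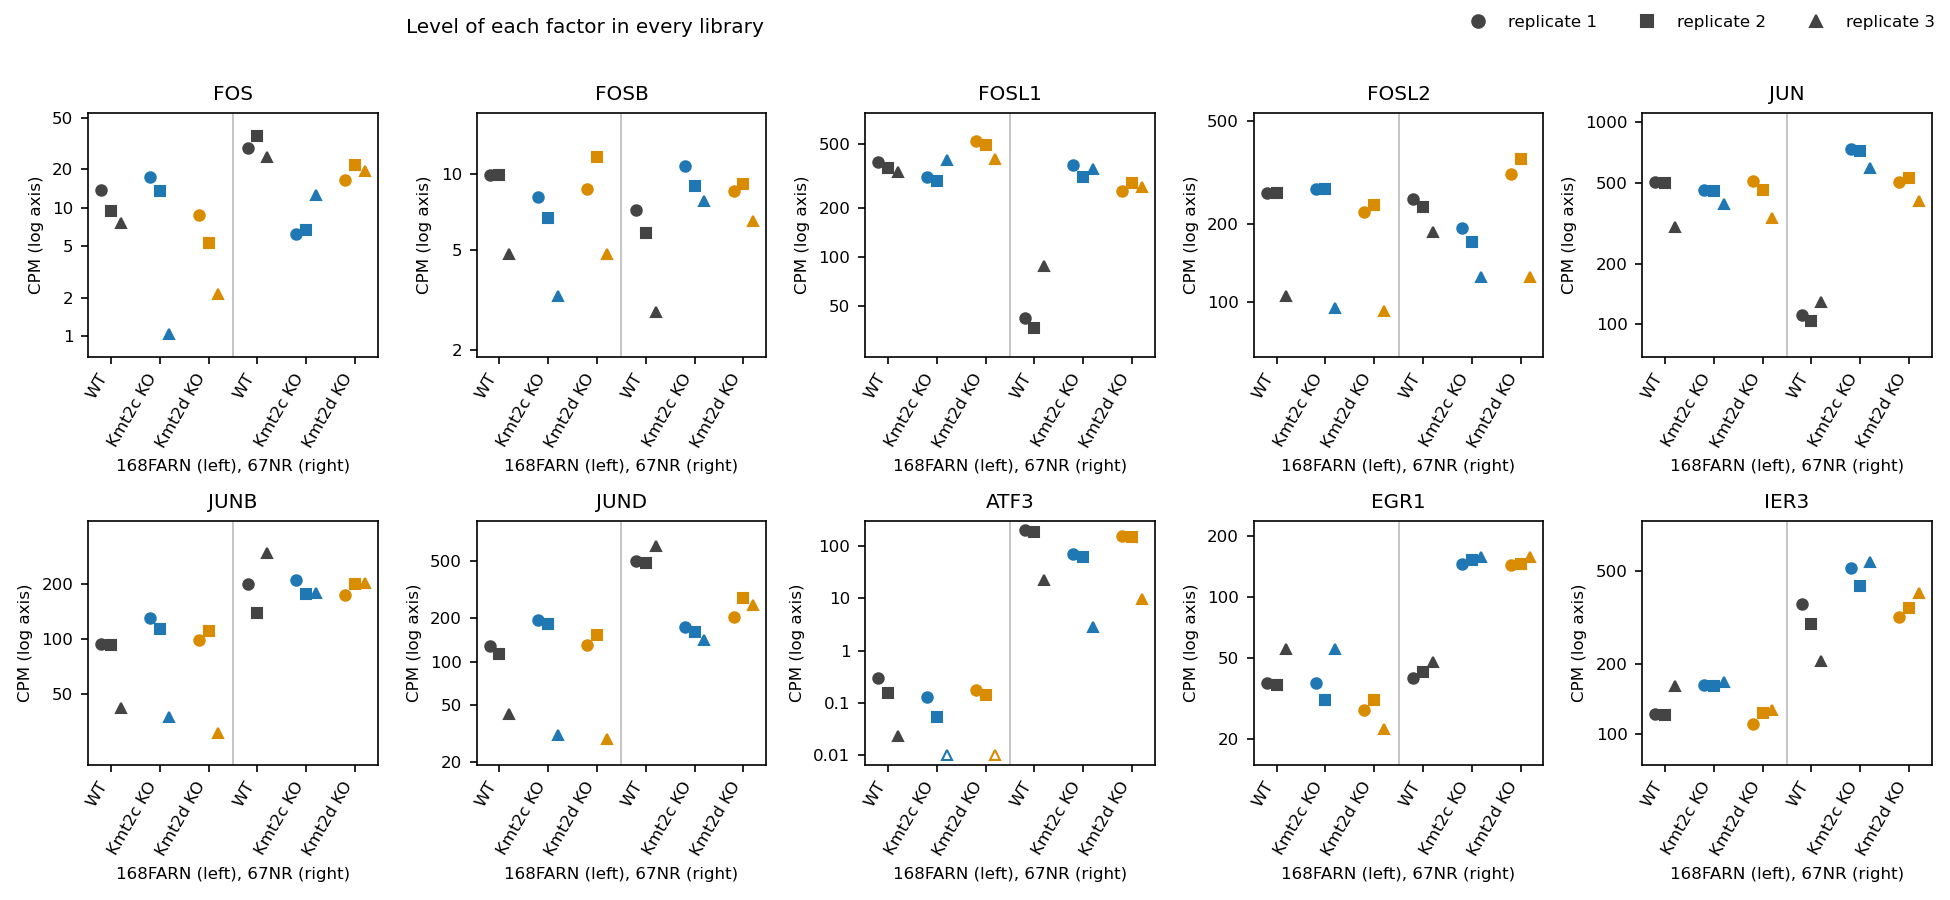
Level of each of the 10 genes in every library, in CPM on a log axis, with 168FARN left and 67NR right of the line in each panel. Circles, squares and triangles are replicates 1, 2 and 3, colours are genotypes, and open triangles at 0.01 stand for libraries with no count. FOSL1, JUN and EGR1 rise from 67NR WT to both KOs without overlap, while ATF3 is near 0 in 168FARN.

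FOSL1 stood at 41.8, 36.2 and 88.0 CPM across 67NR WT, at 372, 314 and 351 CPM across Kmt2c KO and at 257, 288 and 272 CPM across Kmt2d KO cells. The lowest KO library was above the highest WT library, with replicate 3 the highest of WT. The log2 fold change was 2.73 (SE 0.32, adjusted p = 0.00021) in the Kmt2c KO and 2.38 (SE 0.31, adjusted p = 0.00077) in Kmt2d KO cells. CCDC85B, whose exons overlap those of FOSL1, had 17.3 ± 7.68 CPM (SD, n = 3) in 67NR WT, 56.7 ± 7.30 CPM across Kmt2c KO and 46.0 ± 7.96 CPM across Kmt2d KO cells. Its part in the counts of FOSL1 was not tested.

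FOS, a strong activator, moved the other way. It had 29.4, 36.5 and 25.0 CPM across 67NR WT, 6.29, 6.77 and 12.5 CPM across Kmt2c KO and 16.5, 21.6 and 19.4 CPM across Kmt2d KO cells. Both KO groups lay below WT without overlap, and Kmt2c KO lay below Kmt2d KO cells. FOS fell by 1.75 on the log2 scale in Kmt2c KO cells (SE 0.29, adjusted p = 0.0015). In Kmt2d KO cells its log2 fold change was -0.59 (SE 0.28, adjusted p = 0.17) and it was not called. With the replicate block it was -0.60 with an adjusted p of 0.058, just past both thresholds.

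FOSB and FOSL2 moved less. FOSB, a close relative of FOS, was low throughout 67NR, at 7.17, 5.82 and 2.82 CPM across WT, 10.8, 8.94 and 7.82 CPM across Kmt2c KO and 8.58, 9.11 and 6.53 CPM across Kmt2d KO cells. It rose in Kmt2c KO cells, with a log2 fold change of 0.88 (SE 0.33, adjusted p = 0.068), and that call was lost without any 1 of 4 libraries: WT replicate 2 (adjusted p = 0.13), WT replicate 3 (log2 fold change 0.58, adjusted p = 0.088) and Kmt2c KO replicates 1 and 2 (adjusted p = 0.20 and 0.14). In Kmt2d KO cells FOSB had a log2 fold change of 0.69 (SE 0.33, adjusted p = 0.17), and with the replicate block 0.75 (adjusted p = 0.016), which was called. FOSL2 had 251, 234 and 187 CPM across WT, 193, 171 and 125 CPM across Kmt2c KO and 313, 359 and 125 CPM across Kmt2d KO cells. Its replicate 3 was the lowest in each of the groups, WT and KO overlapped, and it was not called.

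Among the Jun genes, JUN and JUND changed in opposite directions and JUNB was not called. JUN, the main partner of the Fos proteins, had 112, 104 and 129 CPM across 67NR WT, 741, 720.5 and 597 CPM across Kmt2c KO and 508, 530.0 and 408 CPM across Kmt2d KO cells. The groups did not overlap, and its log2 fold change was 2.66 (SE 0.18, adjusted p = 1.0e-05) in the Kmt2c KO and 2.15 (SE 0.18, adjusted p = 4.7e-05) in Kmt2d KO cells. JUND, which is usually constitutive and known to slow proliferation, had 499, 482 and 632 CPM across WT, 175, 162 and 140.4 CPM across Kmt2c KO and 203, 275 and 248 CPM across Kmt2d KO cells. It fell by 1.67 on the log2 scale in Kmt2c KO (SE 0.18, adjusted p = 0.00013) and by 1.08 in Kmt2d KO cells (SE 0.18, adjusted p = 0.0027). JUNB, an inducible Jun protein that can oppose JUN, had 201, 139 and 297 CPM across WT, 212, 178 and 178 CPM across Kmt2c KO and 175, 201 and 202 CPM across Kmt2d KO cells. WT replicate 3 was the highest library and replicate 2 the lowest, so the WT values enclosed both KO groups, with log2 fold changes of -0.08 and -0.06.

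ATF3 is a stress-induced bZIP protein that pairs with Jun proteins and often represses. It had 200.3, 187 and 22.6 CPM across 67NR WT, 69.1, 61.4 and 2.86 CPM across Kmt2c KO and 154, 150.1 and 9.69 CPM across Kmt2d KO cells. Replicate 3 was far below the others in each of the groups. The log2 fold change in Kmt2c KO cells was -1.53 (SE 1.22, adjusted p = 0.38) and was not called. Under the replicate block it was -1.91 (SE 0.24, adjusted p = 8.9e-05), and Kmt2c KO was the lowest group within each replicate number. For Kmt2d KO it was -0.30 (adjusted p = 0.90), and -0.58 (adjusted p = 0.069) with the block, which is under the fold threshold.

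EGR1 and IER3, which are not AP-1 proteins, rose in both KOs and in the Kmt2c KO respectively. EGR1 had 39.8, 42.9 and 48.1 CPM across 67NR WT, 145, 153 and 158 CPM across Kmt2c KO and 143, 146 and 157 CPM across Kmt2d KO cells. The KO groups were alike in range and lay far above WT, with log2 fold changes of 1.89 (SE 0.13, adjusted p = 1.2e-05) and 1.85 (SE 0.13, adjusted p = 2.2e-05). IER3 had 359.8, 296 and 205 CPM across WT, 517, 432 and 545 CPM across Kmt2c KO and 316, 345 and 402 CPM across Kmt2d KO cells. It rose in Kmt2c KO cells, with a log2 fold change of 0.88 (SE 0.22, adjusted p = 0.012), and in Kmt2d KO cells, where the ranges overlapped, it had a log2 fold change of 0.38 (adjusted p = 0.25).

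**Figure D2:**
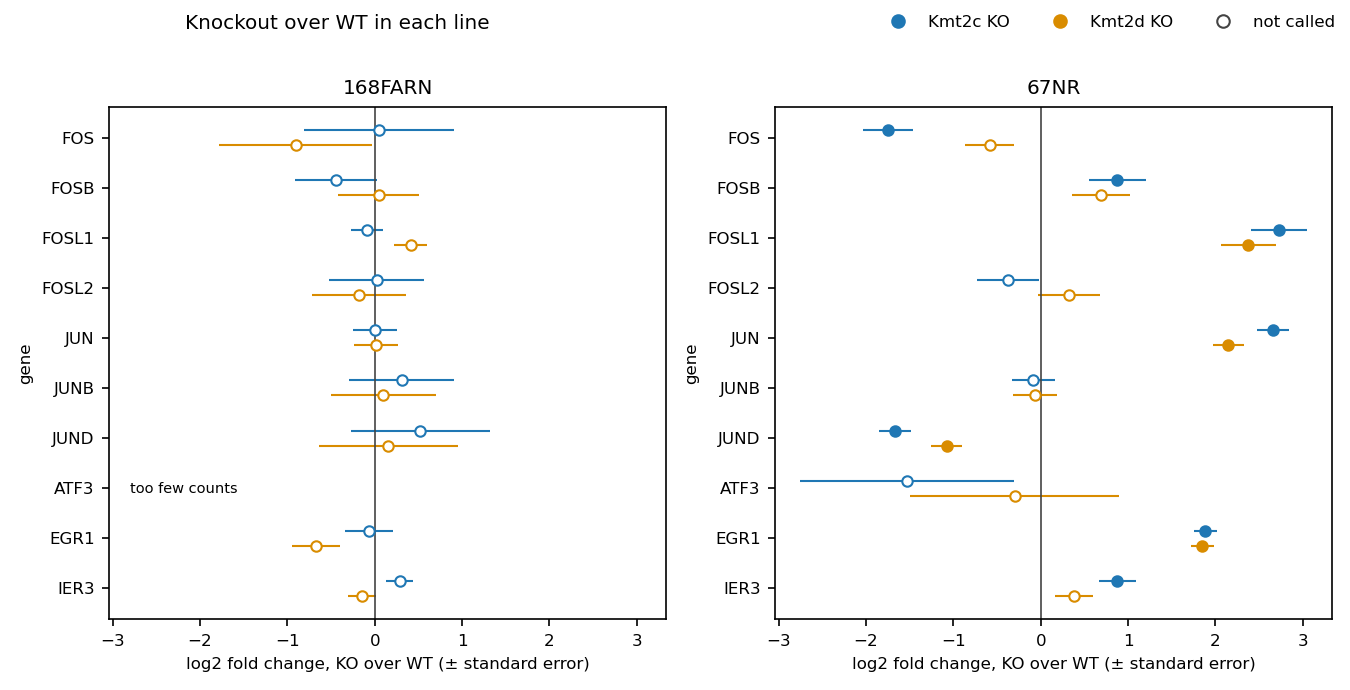
Log2 fold change of KO over WT for each gene with its standard error, 168FARN left and 67NR right, blue for Kmt2c KO and orange for Kmt2d KO. Filled points are called genes. In 67NR the filled points are JUN, FOSL1 and EGR1 on the right and JUND on the left for both KOs, with FOS, FOSB and IER3 for Kmt2c KO, while 168FARN has none.

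The 67NR KOs were also set against each other. None of the 10 genes was called between Kmt2c KO and Kmt2d KO cells by edgeR, against 1.41% of all genes in either direction. An unadjusted p under 0.05 was reached by 4 (FOS, JUN, JUND and IER3), against 10.9% of all genes. DESeq2 called FOS. With the replicate block 2 genes were called, against 7.29% of all genes: FOS, lower in Kmt2c KO cells by a log2 fold change of -1.19 (adjusted p = 0.014), and ATF3, with -1.33 (adjusted p = 0.0087). Both KO comparisons with WT share the same 3 WT libraries, so the values of those comparisons are not independent.

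In 168FARN, none of the 9 genes that passed the filter on low counts was called in either KO. The share of the 12253 genes tested that was called was also small: 0.196% higher and 0.163% lower in Kmt2c KO, and 0.147% higher and 0.139% lower in Kmt2d KO cells. At an unadjusted p under 0.05, edgeR gave 0 of them in the Kmt2c KO and EGR1 in Kmt2d KO cells, against 5.92% and 5.28% of all genes. DESeq2 called none as well, against 2.35% and 2.02% of all genes in either direction. It gave 0 and 2 at that limit, against 8.63% and 7.84% of all genes. Under the replicate block the count stayed at 0, while 7.23% of all genes in the Kmt2c KO and 5.9% in Kmt2d KO cells were called. Between the 168FARN KOs none was called either, against 0.253% of all genes. FOSL1 and IER3 had an unadjusted p under 0.05 by edgeR and by DESeq2, against 5.03% and 7.59% of all genes.

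FOSL1 was high in 168FARN whatever the genotype, at 387, 354 and 336 CPM across WT, 312, 298 and 402 CPM across Kmt2c KO and 520.5, 492 and 403 CPM across Kmt2d KO cells. The Kmt2d KO libraries lay above WT without overlap, with a log2 fold change of 0.41 (SE 0.19, adjusted p = 0.99). JUN had 508, 501 and 304 CPM across WT, 463, 455 and 393 CPM across Kmt2c KO and 513, 462 and 334 CPM across Kmt2d KO cells, so that the KO ranges lay inside or across that of WT. EGR1 had 37.9, 37.0 and 55.4 CPM across WT, 37.6, 30.9 and 55.8 CPM across Kmt2c KO and 27.7, 31.1 and 22.4 CPM across Kmt2d KO cells. The Kmt2d KO range lay below WT, and its log2 fold change was -0.67 (SE 0.27, adjusted p = 0.89).

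FOS, FOSB, FOSL2, JUNB and JUND differed more between replicates than between genotypes in 168FARN. FOS had 13.8, 9.41 and 7.67 CPM across WT, 17.4, 13.4 and 1.04 CPM across Kmt2c KO and 8.81, 5.29 and 2.15 CPM across Kmt2d KO cells. JUND had 128, 113 and 43.3 CPM across WT, 194, 183 and 30.7 CPM across Kmt2c KO and 130.2, 154 and 28.9 CPM across Kmt2d KO cells. Replicate 3 was the lowest library of each group for both genes, and for JUND it lay below every value of replicates 1 and 2. The same held for JUNB, with 93.6, 92.0 and 41.7 CPM across WT, 131, 113 and 37.1 CPM across Kmt2c KO and 98.6, 111 and 30.4 CPM across Kmt2d KO cells. FOSL2 had 92.2 to 105 CPM in the replicates 3 and 223 to 273 CPM in the others, and FOSB 3.28 to 4.83 against 6.70 to 11.7 CPM. IER3 had 122, 121 and 160.1 CPM across WT, 162, 161 and 167 CPM across Kmt2c KO and 111 to 127 CPM across Kmt2d KO cells. Its Kmt2c KO libraries lay just above WT without overlap, with a log2 fold change of 0.28 (SE 0.16, adjusted p = 1.00), and 0.30 (SE 0.11, adjusted p = 0.11) with the replicate block, so it was not called.

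ATF3 was nearly without reads in 168FARN. It had 0 to 9 counts per library and 27 counts over the 9 libraries, which left it out of the tests in that line, against 122 to 16951 counts per library in 67NR. In all, 2 libraries had a count of 0, both replicates 3 of a KO.

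Differences between the lines in the KO effect were tested as interactions on all 18 libraries. The lines also differed in the share of mutant Kmt2c reads that the study reports, and the part of that difference was not tested. For Kmt2c KO, 3 of the 10 genes had a higher effect in 67NR, FOSL1, JUN and EGR1, and 0 a lower one, against 8.49% and 7.55% of the 13882 genes tested. The differences in log2 fold change (67NR minus 168FARN) were 2.74 for FOSL1 (SE 0.38, adjusted p = 0.00014), 2.58 for JUN (SE 0.32, adjusted p = 4.5e-05) and 1.87 for EGR1 (SE 0.30, adjusted p = 0.00061). For Kmt2d KO the same 3 genes were called higher and 0 lower, against 6.68% and 3.92% of all genes. Those differences were 1.91 for FOSL1 (SE 0.37, adjusted p = 0.0043), 2.07 for JUN (SE 0.31, adjusted p = 0.00050) and 2.46 for EGR1 (SE 0.31, adjusted p = 7.8e-05). JUND had an interaction of -2.27 for Kmt2c KO (SE 0.85, adjusted p = 0.10), just outside the threshold, and DESeq2 called it lower. The replicate block called 5 genes for each KO, against 34.6% and 28.4% of all genes. It added JUND (-2.01, adjusted p = 3.4e-05, and -1.09, adjusted p = 0.0077) and FOSB (1.32, adjusted p = 0.0014, and 0.65, adjusted p = 0.093).

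The WT cells of the lines differed for most of the genes. Against 67NR WT, 168FARN WT had 2 genes called higher (FOSL1 and JUN) and 5 lower (FOS, JUNB, JUND, ATF3 and IER3), where 16.9% and 22.3% of all genes were called. FOSL1 was higher by a log2 fold change of 2.70 (SE 0.28, adjusted p = 1.7e-06) and JUN by 1.93 (SE 0.23, adjusted p = 6.3e-06). JUND was lower, with a log2 fold change of -2.50 (SE 0.63, adjusted p = 0.0051), as were JUNB (-1.49, SE 0.49, adjusted p = 0.025) and IER3 (-1.10, SE 0.20, adjusted p = 0.00043). JUNB was not called without 168FARN WT replicate 3 (adjusted p = 0.12). ATF3 had a log2 fold change of -9.81 (SE 1.57, adjusted p = 0.00013), which rests on 1 to 9 counts per 168FARN WT library. FOS had -1.56 (SE 0.67, adjusted p = 0.082), and leaving out any 1 of 5 of the 6 WT libraries ended that call, with adjusted p up to 0.21. The replicate block added FOSB (0.63, adjusted p = 0.010), giving 8 genes against 48.5% of all genes. EGR1 had 43.4 ± 10.4 CPM across 168FARN WT and 43.6 ± 4.18 CPM across 67NR WT (SD, n = 3). The lines were deposited as separate tables, so line and table cannot be told apart.

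The balance within each family was described from CPM per kb of exon, since genes differ in length. In 67NR WT, FOSL2 made up 45.7% ± 10.4 of the Fos family, FOSL1 37.1% ± 15.0, FOS 15.4% ± 4.34 and FOSB 1.70% ± 0.81 (SD, n = 3). FOSL1 was above FOSL2 in replicate 3 (54.3% against 33.7%) but below it in replicates 1 and 2 (29.9% and 27.1% against 52.4% and 51.1%). In the KOs FOSL1 took 85.7% ± 1.85 (Kmt2c KO) and 74.7% ± 7.75 (Kmt2d KO), while FOS took 1.54% ± 0.65 and 3.80% ± 0.52. The share of FOSL1 in 168FARN WT was 83.6% ± 5.37, and in 168FARN KO cells it was 82.0% ± 9.62 (Kmt2c KO) and 88.9% ± 3.58 (Kmt2d KO). The Fos family summed to 85.0 ± 8.78 CPM per kb in 67NR WT, to 236 ± 19.1 in its Kmt2c KO and to 215 ± 25.5 in its Kmt2d KO, against 253 ± 30.6 in 168FARN WT.

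Within the Jun family JUND made up 55.5% ± 4.52 in 67NR WT, 14.7% ± 0.13 in the Kmt2c KO and 24.5% ± 2.59 in Kmt2d KO cells, and JUN 10.8% ± 1.12, 57.3% ± 1.82 and 44.2% ± 4.76 (SD, n = 3). The sum was 340.5 ± 76.0 CPM per kb in WT, 375 ± 38.3 in the Kmt2c KO and 342 ± 27.1 in Kmt2d KO cells. These means hide opposite differences between replicates, since from WT to Kmt2c KO the sum went from 319.7 to 411 and from 277 to 380.4 in replicates 1 and 2 but from 425 to 334 in replicate 3. The 168FARN WT share of JUN was 65.8% ± 4.97 and that of JUND 14.9% ± 3.21. The shares are a description, with no test of their own.

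**Figure D3:**
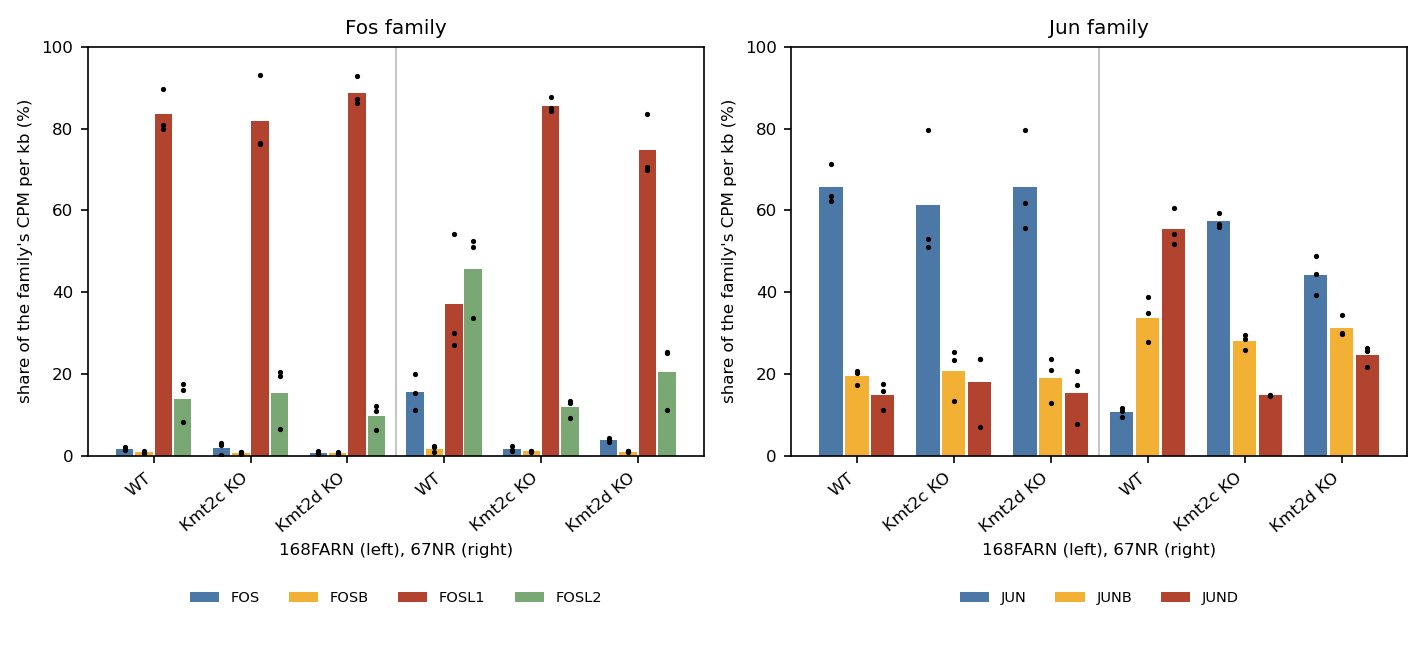
Share of each gene in the summed CPM per kb of the Fos family (left) and the Jun family (right) in the 6 groups; bars are means and dots the 3 replicates. From 67NR WT to its KOs the FOSL1 bar rises from 37.1% to 85.7% and 74.7% and the JUN bar from 10.8% to 57.3% and 44.2%.

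Replicate 3 was compared with replicates 1 and 2 as a description. In 168FARN it was the lowest replicate for 8 of the 10 genes in WT, 7 in the Kmt2c KO and 9 in Kmt2d KO cells. JUND was lower in replicate 3 than the mean of replicates 1 and 2 by 2.79-fold in WT, 6.13-fold in the Kmt2c KO and 4.92-fold in Kmt2d KO cells. FOSL2 was lower by 2.50-fold, 2.88-fold and 2.50-fold. The median difference over the 10 genes on the log2(CPM + 1) scale was -0.62, -0.60 and -0.74. Over the 31 other immediate early genes with at least 1 CPM it was -0.68, -0.73 and -0.72, and over the 11767 such genes of all kinds it was -0.01, 0 and 0. CD68, a lysosomal protein used as a macrophage marker, was lower in replicate 3 as well, by -3.82, -4.58 and -3.76 on that scale, and its part in these values was not tested.

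In 67NR the pattern was narrower. ATF3 was lower in replicate 3 by 8.56-fold in WT, 22.8-fold in the Kmt2c KO and 15.7-fold in Kmt2d KO cells, and FOSB in WT and FOSL2 in Kmt2d KO cells by 2.30-fold and 2.70-fold, while FOSL1 in WT was 2.26-fold higher. The median over the 10 genes was -0.08, -0.19 and 0.02, and CD68 differed by 0.69, -1.75 and -1.53. The 9 heat shock genes with at least 1 CPM had medians of 0.30, 0.21 and 0.40 in 67NR and 0.88, 0.45 and 0.68 in 168FARN. The study collected its replicates a passage apart. It treated each collection time as a batch for its heatmaps, while its differential tests used genotype as the factor. Whether groups with the same replicate number were collected together is not given in the sources used here.

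**Figure D4:**
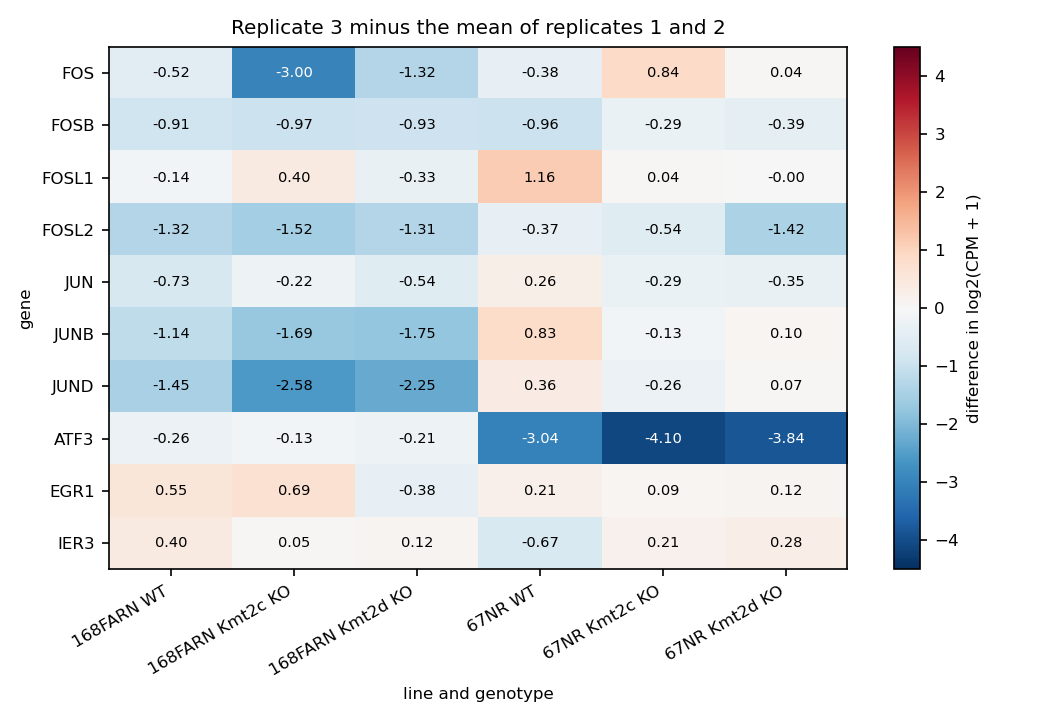
Difference of replicate 3 from the mean of replicates 1 and 2 in log2(CPM + 1), with genes in rows and the 6 groups in columns; blue is lower in replicate 3 and red higher. FOSL2, JUNB and JUND are lower in each of the 168FARN groups, and the ATF3 difference is -3.04, -4.10 and -3.84 in the 67NR groups.

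Other genes of the pathway were read from lists written with earlier results of these data known. Among 33 other immediate early genes, 32 were tested in each line. In 67NR, 14 were called higher and 4 lower in Kmt2c KO, and 14 higher and 3 lower in Kmt2d KO cells, with median log2 fold changes of 0.60 and 0.61. Over all genes tested, 17.9% were higher and 17.4% lower in Kmt2c KO, and 13.9% and 11.6% in Kmt2d KO cells. The block gave 16 higher and 4 lower, and 15 higher and 3 lower, against 41.3% and 32.7% of all genes in either direction. DUSP1, the phosphatase that switches MAP kinases off, rose from 17.5 ± 4.30 CPM across WT to 90.4 ± 7.48 CPM across Kmt2c KO and 82.9 ± 12.5 CPM across Kmt2d KO cells (SD, n = 3; adjusted p = 4.3e-05 and 0.00010). IER5, an immediate early regulator of the heat shock factor, rose from 84.1 ± 10.5 to 244 ± 23.4 and 227 ± 27.8 CPM (adjusted p = 8.8e-05 and 0.00023). ARC, best known from neurons, and GEM, a small GTPase, rose from 0.305 and 2.87 CPM across WT to 4.24 and 12.8 CPM across Kmt2c KO and 7.08 and 15.1 CPM across Kmt2d KO cells. In 168FARN 0 of the 32 were called in either KO by edgeR, with 1 and 4 at an unadjusted p under 0.05. Over all genes, 0.359% and 0.286% were called there, and 5.92% and 5.28% had such a p. With the replicate block 2 were higher and 4 lower in 168FARN Kmt2c KO, and 1 higher and 3 lower in Kmt2d KO cells, against 7.23% and 5.9% of all genes in either direction. The cyclooxygenase PTGS2 (818 ± 246 CPM across 168FARN WT) and the growth regulator MYC (347 ± 104 CPM), the most abundant, were not among them.

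Of the 11 other AP-1 family genes, 10 were tested in 67NR, with 0 higher and 2 lower in Kmt2c KO (BATF3 and MAF) and 1 lower in Kmt2d KO cells (BATF3, which has 1.24 ± 0.27 CPM across WT). The shares of all genes called lower were 17.4% and 11.6%. The replicate block gave 1 higher and 4 lower, and 1 higher and 2 lower, against 41.3% and 32.7% of all genes in either direction. In 168FARN 7 were tested and 0 called in either KO by edgeR with or without the block (0 and 1 at an unadjusted p under 0.05 without it), among them ATF2 (76.1 ± 4.11 CPM across WT) and ATF7 (60.8 ± 5.94 CPM). The shares of all genes called were 0.359% and 0.286%, and with the block 7.23% and 5.9%. At that unadjusted p they were 5.92% and 5.28%. Of the 23 kinases and factors upstream of these genes, 3 were higher and 2 lower in 67NR Kmt2c KO, against 17.9% and 17.4% of all genes. In 67NR Kmt2d KO cells 1 was higher and 1 lower, against 13.9% and 11.6%. The replicate block gave 3 and 2 there, against 32.7% of all genes in either direction. In 67NR Kmt2c KO cells it gave 4 and 2, against 41.3%. RPS6KA1, a ribosomal S6 kinase, fell from 45.6 ± 6.20 to 10.6 ± 1.23 and 18.2 ± 1.05 CPM (adjusted p = 3.0e-05 and 0.00077), and MAP2K6, an activator of p38, rose from 1.60 ± 0.68 to 18.6 ± 1.92 and 12.3 ± 1.72 CPM (adjusted p = 5.6e-05 and 0.00025). In 168FARN 0 of 22 were called in either KO by edgeR, with 3 and 1 at an unadjusted p under 0.05. Over all genes, 0.359% and 0.286% were called there, and 5.92% and 5.28% had such a p. The block called 1 in Kmt2c KO cells, against 7.23% of all genes in either direction. ELK3, a partner of serum response factor, stood at 290 ± 59.0 CPM across WT.

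Of 23 textbook AP-1 target genes, 22 were tested in 67NR, and 13 were higher and 3 lower in Kmt2c KO, 8 higher and 3 lower in Kmt2d KO cells, beside the 17.9% and 17.4%, and 13.9% and 11.6%, of all genes. The median log2 fold changes were 1.10 and 0.79. Under the block 15 were higher and 3 lower, and 12 higher and 3 lower, beside 41.3% and 32.7% of all genes in either direction. CCL2, a monocyte chemokine, rose from 3.03 ± 1.42 CPM across WT to 223 ± 82.2 and 160.0 ± 9.34 CPM (adjusted p = 1.6e-05 and 4.0e-05), HBEGF, an EGF receptor ligand, from 105 ± 11.2 to 355 ± 41.9 and 282 ± 7.70 CPM, and CD44, the hyaluronan receptor, from 312 ± 18.4 to 702 ± 56.7 and 642 ± 57.6 CPM. MMP10, a matrix protease, rose from 4.26 ± 0.43 to 67.3 ± 35.5 and 28.1 ± 9.22 CPM. PLAU, MMP12 and MMP13, on the same list, were called lower in both KOs. In 168FARN, MMP3, another matrix protease, rose in both KOs, from 6.12 ± 1.19 to 37.9 ± 3.30 and 27.0 ± 6.92 CPM (adjusted p = 0.012 and 0.032), and HMOX1 fell in Kmt2c KO cells. These were the 3 calls among 20 tested, where 0.359% (Kmt2c KO) and 0.286% (Kmt2d KO) of all genes were called in either direction. The replicate block gave 5 higher and 2 lower in Kmt2c KO, and 5 higher and 1 lower in Kmt2d KO cells. It called 7.23% and 5.9% of all genes. The study picked Mmp3 by joining these 168FARN libraries with histone mark peaks and single-cell RNA-seq, and reported its rise in 67NR. It then examined neighbouring Mmp genes. The Mmp values here are therefore not independent evidence.

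Of 11 heat shock genes, which answer stress by another route, 9 were tested in each line. In 67NR Kmt2c KO cells 2 were higher, against 17.9% of all genes. In the other 3 KO comparisons 0 were called by edgeR. The shares of all genes called in either direction there were 25.5% in 67NR Kmt2d KO, 0.359% in 168FARN Kmt2c KO and 0.286% in 168FARN Kmt2d KO cells. At an unadjusted p under 0.05 there were 0 in each KO of 168FARN, against 5.92% (Kmt2c KO) and 5.28% (Kmt2d KO) of all genes. In 67NR Kmt2d KO cells there were 3, against 34.8% of all genes. HSP90AA1 and HSPA8 had 2771 ± 1274 and 2482 ± 1174 CPM across 67NR WT and 1831 ± 1384 and 1849.8 ± 671 CPM across 168FARN WT, a wide spread between replicates. Under the replicate block HSPA1B was called lower in 67NR Kmt2d KO cells, where 32.7% of all genes were called in either direction.

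Markers of cell state moved with the AP-1 genes in 67NR. Over all genes tested, 17.9% were called higher and 17.4% lower in Kmt2c KO, and 13.9% and 11.6% in Kmt2d KO cells. Of 7 epithelial markers, 6 were tested, and 6 were lower in the Kmt2c KO and 4 in Kmt2d KO cells. The block called 6 lower in each KO, where it called 41.3% and 32.7% of all genes in either direction. Their summed level was 2098 to 3425 CPM across WT, 433 to 760 CPM across Kmt2c KO and 733 to 1530 CPM across Kmt2d KO cells. E-cadherin (CDH1) fell from 492 ± 30.3 to 66.6 ± 11.7 and 181 ± 27.6 CPM, and EPCAM and the keratins KRT18 and KRT19 fell in both KOs. Of 8 mesenchymal markers, 7 were tested, and 5 were higher and 1 lower in each KO. The marker called lower was FN1, with a mean of 4444 CPM across WT, 1068 CPM across Kmt2c KO and 1427 CPM across Kmt2d KO cells. With the block 2 mesenchymal markers were lower in Kmt2c KO cells. The repressor ZEB1 rose from 5.17 ± 1.34 to 70.9 ± 7.56 and 51.0 ± 3.10 CPM and N-cadherin (CDH2) from 11.1 ± 3.52 to 194 ± 70.0 and 150.4 ± 55.0 CPM, and ZEB2 and TWIST1 rose too. The summed mesenchymal level, carried by VIM and FN1, was 3266 to 6154 CPM across WT, 4251 to 5498 in the Kmt2c KO and 3951 to 5546 CPM across Kmt2d KO cells. In 168FARN, 1 of the 7 epithelial markers reached 1 CPM (KRT8, 217 ± 156 CPM across WT), and EPCAM was at 0 in every library. Of these lists, 1 epithelial and 7 mesenchymal markers were tested in the 168FARN KOs. None was called by edgeR, with 0 at an unadjusted p under 0.05. Over all genes, 0.359% (Kmt2c KO) and 0.286% (Kmt2d KO) were called there, and 5.92% and 5.28% had such a p. The replicate block called TWIST1 and FN1 higher in Kmt2d KO cells, against 5.9% of all genes in either direction. Leukocyte markers summed to at most 94.1 CPM in any library, with CD68 the only 1 of 5 at 1 CPM or more in any group, and endothelial markers to at most 5.37 CPM. CDH5 was called higher in both 67NR KOs and in 168FARN Kmt2c KO cells, and CD79A in 67NR Kmt2c KO cells at 0.457 CPM. The block also called CD79A higher in 67NR Kmt2d KO cells, at 0.170 CPM. The part of this change of state in the AP-1 levels was not tested, and in bulk RNA a change in the mix of cells within a pool cannot be told apart from a change in each cell.

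Genes most like each factor were taken by Pearson r of log2(CPM + 1) over the 18 libraries after each line's mean was subtracted, among 10769 genes with at least 1 CPM in each line. The libraries share line, genotype and replicate number, so the values are descriptive. JUN was closest to RORB (0.98) and FAM131B (0.98), JUND to SLC44A2 (0.98) and RNF145 (0.98), FOSL1 to DPY19L1 (0.98) and RGS20 (0.96), and EGR1 to SNAI2 (0.94) and PPIC (0.92). JUNB was closest to PPP1R35 (0.96) and PHF21A (0.96), FOSL2 to KRTCAP2 (0.95) and NAAA (0.95), FOSB to D430042O09RIK (0.95) and SCPEP1 (0.94), FOS to 5730508B09RIK (0.91) and CHCHD7 (0.89), and IER3 to NR1H3 (0.88) and TSPAN9 (0.88). Among the factors themselves, r for FOSL1 and JUN was 0.97 over the 9 libraries of 67NR and 0.21 over those of 168FARN. JUNB and JUND had r = 0.99 in 168FARN, where replicate 3 was low for both, and 0.32 in 67NR.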

How the data were processed

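Per the labels and the study's methods, RNA was isolated with RNeasy, made into strand-specific KAPA mRNA HyperPrep libraries, sequenced on a NovaSeq and aligned by the authors to mm9 with STAR in the VIPER pipeline. The STAR version and strand setting are not given in the sources used here. The authors deposited raw counts of reads per gene symbol, 1 table a line, and 0 value columns were left unmapped. Counts were tested in R 4.3.3 with edgeR 4.0.16 (TMM, filter on low counts by group, robust quasi-likelihood test, genotype as the factor, 9 libraries per line; interactions and the WT comparison on 18 libraries over symbols shared by both tables, 24333 in all) and with DESeq2 1.42.0 as an alternative. P-values were adjusted by Benjamini-Hochberg over all genes tested. Standard errors are the absolute log2 fold change over the square root of F. The scripts were tested on simulated data. Positions and exon lengths came from GENCODE vM1 (mm9), promoters from RefSeq.

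The study defines replicates as collections of a cell line separated by a passage, so p-values measure the spread between these samples. Deviations from group means correlated within a replicate number at 0.65 to 0.90 in 168FARN and at 0.35 to 0.72 in 67NR, over 3 pairs of groups each. Replicates 1 and 2 also correlated with each other (0.62 to 0.73 and 0.28 to 0.52), so the numbers mainly set replicate 3 apart. The members and lists were chosen with earlier results of these data known. Named genes were the 10 factors, up to 4 genes per list and line called in both KOs in the same direction (by smallest p in Kmt2c KO), otherwise up to 2 with the highest CPM, and the 2 genes most like each factor. One gene that this rule names is not reported here. Members of lists outside this rule (MAF, PLAU, MMP12, MMP13, HMOX1, HSPA1B, KMT2C, KMT2D, CCDC85B) were named after their values were seen. Alternatives were other size factors, total counts, DESeq2, no filter, the replicate block, no robust estimate, compared groups alone, a stricter threshold, replicate 3 left out and each library left out.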

Additional observations from a re-analysis of the deposited data

Results flagged for a closer look

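The tests of a difference between the lines stood out for FOSL1, JUN and EGR1. The Kmt2c KO effect was larger in 67NR than in 168FARN by 2.74 for FOSL1, 2.58 for JUN and 1.87 for EGR1 on the log2 scale. The Kmt2d KO effect was larger in 67NR by 1.91 for FOSL1, 2.07 for JUN and 2.46 for EGR1. Each is a difference between lines in the same contrast by an interaction term in edgeR's quasi-likelihood test. The lines also started from different levels, since FOSL1 and JUN were higher in 168FARN WT than in 67NR WT, whereas EGR1 was not called between the WT groups.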

How the results depend on the processing

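Of 24 calls of a factor in a comparison, 0 changed sign under any alternative, and of 63 pairs of factor and comparison that were not called, 26 did under at least 1. FOSL1, JUN, JUND and EGR1 in both 67NR KOs, and FOS and IER3 in Kmt2c KO cells, were called in every alternative that used the same thresholds and under the stricter one. FOSB in 67NR Kmt2c KO cells was not called with total counts (adjusted p = 0.14), with the compared groups alone (adjusted p = 0.11) or at an adjusted p under 0.05. FOS between the WT groups was not called without the filter on low counts (adjusted p = 0.11) or at an adjusted p under 0.05. The replicate block, with calls given beside the results, changed no other call of a factor. The number of factors called rose with all replicates 3 left out to 1 in 168FARN Kmt2c KO (JUND, 14.5% of all genes called), 1 in Kmt2d KO (FOS, 11%), 2 between the 168FARN KOs (9.29%), 3 between the 67NR KOs (12.6%), and 6 (38%) and 5 (32.5%) for the interactions of Kmt2c KO and Kmt2d KO. With the block in DESeq2 it rose to 1 in 168FARN Kmt2d KO (EGR1, 6.5% of all genes called). That fit also gave 2 between the 67NR KOs (8.86%), and 5 (35.6%) and 5 (29.3%) for the interactions. With the block in edgeR the number rose to 2 (7.29%) between the 67NR KOs, and to 5 (34.6%) and 5 (28.4%) for the interactions. With DESeq2 alone it rose to 1 between the 67NR KOs (4.37%). With 1 library left out it ran from 0 to 1 between the 67NR KOs and from 3 to 5 for the Kmt2c KO interaction. The 5 came without 168FARN Kmt2c KO replicate 3, where JUND and FOS were added, and the 1 without 67NR Kmt2c KO replicate 3 (FOS) or Kmt2d KO replicate 3 (FOSL2). The causes were not tested. Scaling by total counts moved the median log2 fold change of all genes to -0.21 in 67NR Kmt2d KO against WT and to 0.19 between the 67NR KOs. Depth limited ATF3 in 168FARN.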
